A study of Homo sapiens with 9 samples.

Results

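DNA replication and S-phase genes were followed in HaCaT keratinocytes, an immortalized line of human skin cells. The 49 genes were taken by symbol from a list of replication genes, out of 16199 genes listed in at least 1 of the 9 libraries. The rule used no measured value, but the list was chosen with earlier results of these data known. All 49 were listed in every library and all 49 passed the filter on low counts. They were sorted by role into 9 groups, from the proteins that license origins to the factors that switch on S-phase genes.

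Poly(A)-selected RNA was sequenced from wild-type HaCaT cells in 3 groups of 3 libraries each. The untreated cells were kept in serum free media. The other cells, already confluent, received either epidermal growth factor (EGF, 10 nM) for 24 h or bleogen pB1 (1 µM) for 24 h, a plant peptide from the cactus Pereskia bleo known as an agonist of the EGF receptor. The doses differ between the agents, and all groups are 1 immortalized line. The labels do not say whether the libraries of a group came from separate cultures, so that p-values measure the spread between these libraries, which may be technical.

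Before a cell copies its DNA, the origin recognition complex together with CDC6 and CDT1 loads the MCM helicase onto origins in an inactive form. At the start of S phase the helicase is switched on by CDC45, the GINS complex and MCM10, and polymerases, clamp loaders and nucleotide-making enzymes then act at the fork. Many of these genes are switched on together late in G1 by E2F transcription factors once the retinoblastoma protein is phosphorylated, which growth factors such as EGF bring about. In bulk RNA, a rise in the share of cells in S phase and more RNA per cell cannot be told apart.

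The libraries held 20288417 to 21320994 expected counts, so that 3 counts, taken as the smallest level that can be shown, came to 0.139 to 0.151 CPM. CPM are expected counts per 1000000 counts of the library, with the library total scaled by its TMM factor, which lay between 0.9635 and 1.024. The 49 genes together took 0.455% to 0.490% of the counts of the untreated libraries, 0.526% to 0.543% with EGF and 0.523% to 0.596% with bleogen pB1. All 9 keratinocyte markers were present in every library, at a summed 12805 to 15548 CPM, but they were not steady with EGF, where edgeR called KRT14, TP63, ITGA6 and LAMB3 higher (1.42-fold to 2.47-fold) and KRT5 and DSP lower (0.461-fold and 0.614-fold). The 7 fibroblast markers summed to 7.62 to 9.31 CPM untreated, 1.30 to 2.00 CPM with EGF and 6.08 to 9.17 CPM with bleogen pB1. Of these, COL1A2, PDGFRA and PDGFRB were at or near 0, and edgeR called COL1A1, COL3A1 and DCN lower with EGF (0.313-fold, 0.126-fold and 0.035-fold). Endothelial markers summed to 1.10 to 1.40 CPM untreated, 0.250 to 0.453 CPM with EGF, where edgeR called VWF lower, and 0.562 to 1.29 CPM with bleogen pB1. The part of these markers in the results was not tested. Exons of 25 of the 49 genes overlap exons of another gene, 20 of them on the opposite strand, and whether counting used the strand is not given in the sources used here, so that their values are less certain. They include MCM7 (AP4M1), RFC4 (EIF4A2), RPA1 (SMYD4), RPA3 (UMAD1), TYMS (ENOSF1) and LIG1 on the opposite strand. FEN1 (FADS2) and PRIM1 (NACA) overlap another gene on the same strand.

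E2F factors bind short DNA words near the start of their target genes, and such words were searched in the promoters of the replication genes. Promoter windows of 300 bases, with 250 bases before and 50 from the start site on, were taken from RefSeq (GRCh38.p14) and matched 42 of the 49 genes. MCM4, MCM5, GINS4, POLD3, RPA2, RPA3 and E2F8 had none. At least 1 of the 4 words TTTCCCGC, TTTGGCGC, TTTGCCGC and TTTCGCGC, on either strand, was in the windows of 23 of these 42 genes (54.8%). By comparison, 4.01% of all 27195 genes with a window and 6.74% of the 10167 that were also tested held one. By role, the words were in 7 of 9 genes for origin licensing, in 4 of 8 for polymerases and primase, and in 2 of 6 for the clamp and its loader. Words on opposite strands can overlap, and a gene was counted once. CCAAT, a word bound by the factor NF-Y, was in 27 of the 42 genes (64.3%) against 39.7% of all genes with a window. A match is a description of letters and does not show that a factor binds there.

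The stretches below are shown because their genes carry the results that follow, with the E2F words of either strand in capitals, and start sites are counted as position 0. TIPIN and CDC6 were among the genes called higher with EGF, as was CLSPN, whose word reads on the opposite strand. MCM3 and LIG1 were lower with EGF at an adjusted p alone, MCM2 and MCM6 were higher with bleogen pB1 at an adjusted p alone, and E2F1 encodes one of the factors itself.
MCM2 (chr3:127598388-127598449, plus strand, from −23): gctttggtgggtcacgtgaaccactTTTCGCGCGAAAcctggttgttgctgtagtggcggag
MCM6 (chr2:135876497-135876558, minus strand, from −115): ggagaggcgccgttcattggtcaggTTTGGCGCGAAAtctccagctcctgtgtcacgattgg
MCM3 (chr6:52284714-52284771, minus strand, from −29): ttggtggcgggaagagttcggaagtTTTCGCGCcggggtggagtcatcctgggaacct
CDC6 (chr17:40287861-40287918, plus strand, from −18): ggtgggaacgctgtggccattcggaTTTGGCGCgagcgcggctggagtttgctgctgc
CLSPN (chr1:35769951-35770008, minus strand, from −30): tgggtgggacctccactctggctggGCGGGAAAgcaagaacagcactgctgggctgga
TIPIN (chr15:66356715-66356776, minus strand, from −91): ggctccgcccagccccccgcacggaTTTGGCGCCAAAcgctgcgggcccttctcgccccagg
LIG1 (chr19:48170426-48170483, minus strand, from −139): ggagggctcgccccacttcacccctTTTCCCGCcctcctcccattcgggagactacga
E2F1 (chr20:33686373-33686443, minus strand, from −58): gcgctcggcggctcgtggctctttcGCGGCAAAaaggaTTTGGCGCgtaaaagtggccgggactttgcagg
In MCM2 and TIPIN, words of both strands overlap in a 12-base run that reads the same on either strand. The MCM10 window, shown whole because MCM10 was called with EGF and with bleogen pB1, held none of the 4 words and held CCAAT at 2 places, given in capitals. The MCM10 window also held tttggcgg, which differs from the word TTTGGCGC in its last base.
MCM10 (chr10:13161308-13161607, plus strand, from −250): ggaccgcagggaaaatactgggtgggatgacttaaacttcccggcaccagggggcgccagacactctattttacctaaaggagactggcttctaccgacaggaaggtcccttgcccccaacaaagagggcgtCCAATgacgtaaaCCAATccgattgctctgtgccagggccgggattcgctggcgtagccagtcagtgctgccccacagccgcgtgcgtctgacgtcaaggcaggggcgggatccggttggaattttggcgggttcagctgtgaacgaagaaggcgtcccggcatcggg

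**Figure D1:**
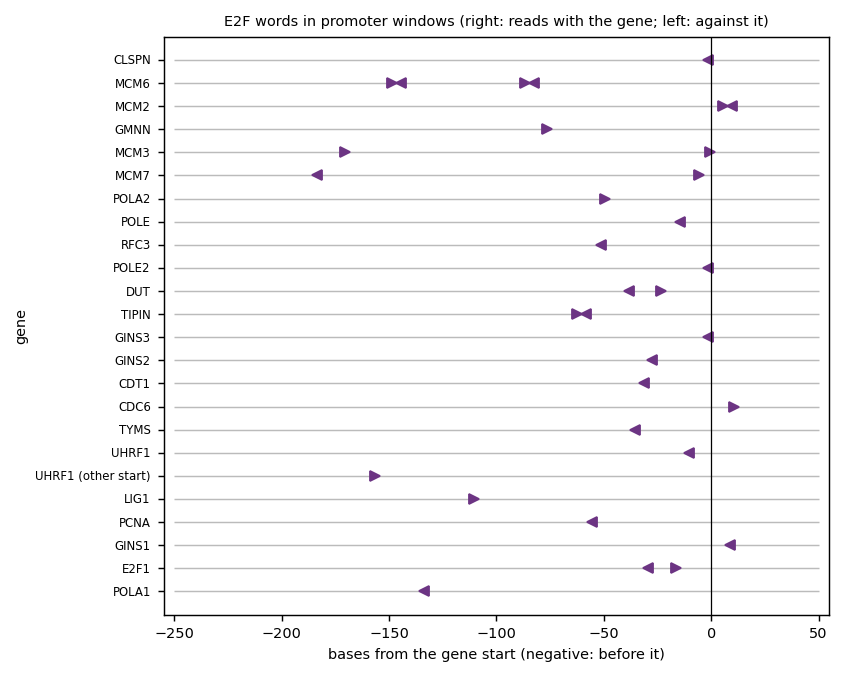
E2F words in the 300-base promoter windows of the 23 genes that held one, by distance in bases from the gene start (x axis), with 1 line per window and triangles pointing right for words on the strand of the gene and left for the opposite strand. Words of CLSPN, POLE2 and GINS3 begin at −5, next to the start, and those of MCM6 begin between −152 and −86.

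After EGF, 14 of the 49 genes were called higher and 0 lower, where a call needed an edgeR adjusted p of at most 0.05 and a log2 fold change of at least 0.5 in size. Of all 12394 genes tested, 15.1% were called higher and 21.8% lower in this comparison. The 14 were ORC1, ORC6, CDC6, CDC45, GINS2, GINS4, MCM10, RFC3, RFC4, POLA2, RRM2, UHRF1, CLSPN and TIPIN, from 7 of the 9 roles. Their fold changes ran from 1.42-fold for GINS2 to 1.90-fold for RRM2, the small subunit of the enzyme that makes deoxynucleotides. At the adjusted p alone, 29 genes were higher (32.4% of all genes tested), 5 were lower (33.6% of all genes tested) and 15 did neither. At an unadjusted p under 0.05, edgeR found 30 higher (33.9% of all genes tested) and 5 lower (35.2%), and DESeq2 also called 14 higher and 0 lower.

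Across the 49 genes the median log2 fold change after EGF was 0.27, a rise of 20.8%, against −0.01 over all genes tested. Of the 49 estimates 40 lay above 0, of which 8 (CDT1, MCM6, GINS3, RFC1, POLA1, POLE, TK1 and DUT) changed sign with another scaling. Without overlap between the CPM values of the groups, 30 genes were higher (34.5% of all genes tested) and 6 were lower (35.9%). Upper-quartile scaling moved the median of all genes to −0.12 and that of the 49 genes to 0.17, and it left 9 genes called higher and 0 lower. The 5 calls lost with it were GINS2, GINS4, RFC4, POLA2 and UHRF1, at log2 fold changes of 0.40 to 0.48, and GMNN, MCM4, GINS1, RFC2 and PRIM2 then missed the adjusted p. Without untreated replicate 1 the calls of GINS2, RFC4, POLA2 and UHRF1 were lost, at 0.47 to 0.497 on the log2 scale, just under the fold limit.

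After bleogen pB1, 1 of the 49 genes, MCM10, was called higher and 0 were called lower by edgeR. Of all genes tested, 0.218% were called higher and 1.26% lower. At the adjusted p alone 15 genes were higher (1.56% of all genes tested) and 0 lower (2.55% of all genes tested). They were MCM2, MCM4, MCM6, ORC6, CDC45, GINS2, MCM10, RFC3, RFC4, POLA2, RRM1, RRM2, TYMS, CHAF1A and E2F1, at log2 fold changes of 0.23 to 0.56. At an unadjusted p under 0.05 edgeR found 39 higher (11.7% of all genes tested) and 0 lower (10.5%), and DESeq2 called 1 higher and 0 lower.

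With bleogen pB1 most estimates were small and above 0. The median log2 fold change was 0.26, a rise of 19.7%, against −0.001 over all genes tested, and 48 of the 49 estimates lay above 0 in edgeR under each scaling. The exception was RPA3, a small subunit of the protein that coats single-stranded DNA. For 39 genes every bleogen pB1 library lay above every untreated library, as did 14.4% of all genes tested. The count of 15 was not steady when any 1 library was left out. It became 0, 2 and 3 without untreated replicates 1, 2 and 3, and 29, 2 and 2 without bleogen pB1 replicates 1, 2 and 3. DESeq2 over the 9 libraries gave 26 genes at the adjusted p alone, and limma on unfiltered log2(FPKM + 1) gave 3.

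The spread within the bleogen pB1 group was wide for these genes. As log2 ratios to the untreated mean, the median over the 49 genes was −0.06, −0.01 and 0.05 in the untreated libraries, 0.29, 0.28 and 0.29 with EGF, and 0.15, 0.37 and 0.23 with bleogen pB1. Replicate 2 had the highest value of the bleogen pB1 libraries for 39 genes, and replicate 1 the lowest for 39. In the untreated group replicate 3 had the highest value for 33 genes and replicate 1 the lowest for 33. The genes thus moved together between libraries, so that counts of genes above 0 or without overlap are not separate pieces of evidence. The medians of all genes in the bleogen pB1 libraries lay between −0.008 and 0.005, where TMM scaling keeps them near 0.

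The helicase MCM2 to MCM7 and its loaders form the licensing group of 11 genes. With EGF, the loaders ORC1, ORC6 and CDC6 were called higher (15.1% of all genes tested were). At the adjusted p alone 6 of the 11 were higher (32.4% of all genes tested), and MCM3 and MCM5 were lower (33.6%). With bleogen pB1, edgeR and DESeq2 each called 0 of the 11, although 10 had an unadjusted p under 0.05 in edgeR (22.2% of all genes tested). MCM2, MCM4, MCM6 and ORC6 were higher at the adjusted p alone (1.56% of all genes tested).

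ORC6, the smallest subunit of the origin recognition complex, had 23.9, 23.5 and 24.98 CPM in the untreated, 41.1, 43.8 and 41.3 CPM in the EGF-treated and 27.8, 35.1 and 30.6 CPM in the bleogen pB1-treated libraries. All EGF values lay above all others, and the bleogen pB1 values lay between the groups without overlap. The log2 fold change (± 1 SE, here and below) was 0.80 ± 0.087 (edgeR adjusted p = 4.9e-06) with EGF and 0.37 ± 0.088 (edgeR adjusted p = 0.036) with bleogen pB1. ORC1, the subunit that helps recruit CDC6, had 39.2, 41.1 and 42.6 CPM in the untreated, 67.5, 68.1 and 65.6 CPM in the EGF-treated and 44.7, 60.6 and 52.1 CPM in the bleogen pB1-treated libraries. It rose with EGF (log2 fold change 0.71 ± 0.093, edgeR adjusted p = 2.2e-05), and with bleogen pB1 the estimate of 0.36 ± 0.093 (edgeR adjusted p = 0.051) just missed the threshold of the adjusted p.

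CDC6, the loader that brings the helicase to the origin complex, had 171, 170.5 and 183 CPM in the untreated, 272, 259 and 267 CPM in the EGF-treated and 182, 228 and 204 CPM in the bleogen pB1-treated libraries. The groups treated with EGF and untreated did not overlap, and the lowest bleogen pB1 library lay below the highest untreated one. CDC6 rose with EGF by a log2 fold change of 0.60 ± 0.075 (edgeR adjusted p = 1.4e-05), and the bleogen pB1 estimate was 0.23 ± 0.075 (edgeR adjusted p = 0.1). CDT1, its partner in loading, had a log2 fold change of 0.07 ± 0.055 (edgeR adjusted p = 0.31) with EGF and 0.06 ± 0.055 (edgeR adjusted p = 0.57) with bleogen pB1. Geminin (GMNN), which inhibits CDT1, had a log2 fold change of 0.30 ± 0.088 (edgeR adjusted p = 0.0079) with EGF and 0.28 ± 0.088 (edgeR adjusted p = 0.084) with bleogen pB1.

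Among the 6 helicase subunits EGF gave changes in both directions. MCM3 had 177, 183 and 189 CPM in the untreated, 167, 146 and 164 CPM in the EGF-treated and 206, 214 and 209.8 CPM in the bleogen pB1-treated libraries. All EGF libraries were below all untreated libraries, and all bleogen pB1 libraries were above them. Its log2 fold change was −0.20 ± 0.061 (edgeR adjusted p = 0.01) with EGF and 0.20 ± 0.061 (edgeR adjusted p = 0.085) with bleogen pB1. Without EGF replicate 2 the EGF estimate was −0.14 and missed the threshold.

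MCM5, another subunit of the ring, had 139, 139.9 and 143 CPM in the untreated, 126, 114 and 119.6 CPM in the EGF-treated and 158, 154 and 160.4 CPM in the bleogen pB1-treated libraries. The same order held without overlap, with a log2 fold change of −0.23 ± 0.054 (edgeR adjusted p = 0.0021) for EGF and 0.16 ± 0.054 (edgeR adjusted p = 0.1) for bleogen pB1. MCM4 (log2 fold change 0.22 ± 0.068, edgeR adjusted p = 0.011) and MCM7 (log2 fold change 0.25 ± 0.060, edgeR adjusted p = 0.0023) were higher with EGF at the adjusted p alone. MCM4 missed that threshold with upper-quartile scaling (0.12 on the log2 scale), in the 3 limma fits (0.16) and without untreated replicate 1 (0.19). For MCM2 the EGF estimate of the log2 fold change was −0.07 ± 0.059 (edgeR adjusted p = 0.27), and for MCM6, whose sign changed with scaling, it was 0.01 ± 0.067 (edgeR adjusted p = 0.88).

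With bleogen pB1 all 6 subunits had higher CPM in every treated than in every untreated library, as did 14.4% of all genes tested. Their log2 fold changes ran from 0.16 for MCM5 to 0.34 for MCM4. MCM2, chosen after its values were seen, had 242, 261 and 269 CPM in the untreated, 253, 234 and 246 CPM in the EGF-treated and 291, 305 and 309.8 CPM in the bleogen pB1-treated libraries. Its bleogen pB1 values were the highest throughout, with a log2 fold change of 0.23 ± 0.059 (edgeR adjusted p = 0.049). The share of each subunit in the summed FPKM of the ring (fragments scaled by gene length and library total) shows the shift on a scale free of library scaling. MCM7 made up 27.4% ± 0.51 of the sum untreated, 31.6% ± 1.4 with EGF and 26.4% ± 0.49 with bleogen pB1 (SD, n = 3). MCM3 made up 14.5% ± 0.15, 12.1% ± 0.49 and 14.2% ± 0.28 in the same order, and MCM5 14.1% ± 0.44, 11.6% ± 0.30 and 13.5% ± 0.68. MCM4 made up 17.5% ± 0.24, 19.8% ± 0.38 and 19.0% ± 0.83, and MCM2 18.7% ± 0.23, 17.2% ± 0.21 and 18.8% ± 0.43. Shares of one sum depend on each other, so that a rise of one subunit lowers the shares of others.

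Ratios of counts within a library do not depend on scaling between libraries, and the pairs given here were chosen after their values were seen. For each MCM3 count there were 0.968, 0.931 and 0.968 CDC6 counts in the untreated, 1.63, 1.78 and 1.63 in the EGF-treated and 0.884, 1.07 and 0.971 in the bleogen pB1-treated libraries. CDC6 counts per MCM3 count were thus higher in every EGF library than in any other, and the bleogen pB1 and untreated libraries overlapped. A ratio shows unequal change of the pair and not that one of them was unchanged.

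Helicase activation was the role with the second highest median after EGF, a log2 fold change of 0.55 over 6 genes. With EGF 4 of the 6 were called higher (15.1% of all genes tested) and 5 were higher at the adjusted p alone (32.4%). With bleogen pB1 the median was 0.34, with 1 called higher (0.218% of all genes tested) and 3 higher at the adjusted p alone (1.56%). All 6 were without overlap above the untreated libraries, as were 14.4% of all genes tested.

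MCM10, which helps the loaded helicase begin to unwind, had 46.6, 44.8 and 51.7 CPM in the untreated, 96.8, 82.5 and 89.0 CPM in the EGF-treated and 61.6, 80.7 and 68.1 CPM in the bleogen pB1-treated libraries. Both treated groups lay above the untreated libraries without overlap, and the lowest EGF value lay just above the highest bleogen pB1 value. MCM10 had a log2 fold change of 0.91 ± 0.098 (edgeR adjusted p = 4.8e-06) with EGF and 0.56 ± 0.098 (edgeR adjusted p = 0.0074) with bleogen pB1. The bleogen pB1 call was lost without untreated replicate 1 (0.54) or 2 (0.51), with an edgeR adjusted p of up to 0.054, and without bleogen pB1 replicate 2, where the estimate of 0.44 was under the fold limit.

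CDC45, the helicase cofactor, rose with EGF (log2 fold change 0.67 ± 0.091, edgeR adjusted p = 3.3e-05) and had a log2 fold change of 0.41 ± 0.091 (edgeR adjusted p = 0.029) with bleogen pB1. Of the 4 GINS subunits, which hold CDC45 on the helicase, GINS2 (log2 fold change 0.51 ± 0.088, edgeR adjusted p = 0.00024) and GINS4 (log2 fold change 0.59 ± 0.082, edgeR adjusted p = 4e-05) were called higher with EGF. The GINS2 call was lost without untreated replicate 1 (0.47), untreated replicate 3 (0.48) or EGF replicate 1 (0.43), and upper-quartile scaling took GINS2 to 0.40 and GINS4 to 0.48, under the fold limit. GINS1 had a log2 fold change of 0.27 ± 0.074 (edgeR adjusted p = 0.0056), and GINS3, whose sign changed with scaling, had a log2 fold change of 0.01 ± 0.11 (edgeR adjusted p = 0.95). The bleogen pB1 estimates for GINS1 to GINS4 were 0.28, 0.40, 0.27 and 0.27 on the log2 scale, of which GINS2 alone passed the adjusted p of edgeR.

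The sliding clamp PCNA tethers polymerases to DNA and is loaded by a complex of RFC1 to RFC5. RFC3 and RFC4 were called higher with EGF (15.1% of all genes tested were). At the adjusted p alone 5 of the 6 genes were higher (32.4% of all genes tested), RFC1 being the exception. RFC3 had 56.6, 55.7 and 63.2 CPM in the untreated, 95.5, 87.6 and 91.4 CPM in the EGF-treated and 64.4, 82.8 and 76.4 CPM in the bleogen pB1-treated libraries. Every EGF value was above every bleogen pB1 value, and these were above the untreated ones. RFC3 had a log2 fold change of 0.65 ± 0.087 (edgeR adjusted p = 3.1e-05) with EGF and 0.35 ± 0.088 (edgeR adjusted p = 0.045) with bleogen pB1.

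RFC4 had a log2 fold change of 0.56 ± 0.082 (edgeR adjusted p = 5.8e-05) with EGF and 0.34 ± 0.082 (edgeR adjusted p = 0.041) with bleogen pB1, although its exons overlap those of EIF4A2 on the other strand. PCNA had the highest FPKM of all 49 genes untreated, 218 ± 10.2 (SD, n = 3), with 250.4 ± 6.74 after EGF and 260.5 ± 24.0 after bleogen pB1. Its log2 fold change was 0.27 ± 0.068 (edgeR adjusted p = 0.0031) with EGF and 0.23 ± 0.068 (edgeR adjusted p = 0.07) with bleogen pB1.

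Few polymerase genes passed the tests. POLA2 was the only one of the 9 polymerase and primase genes called with EGF (15.1% of all genes tested were called higher). PRIM2 was also higher at the adjusted p alone (32.4% of all genes tested), and the median of the group was 0.09. POLA2, the regulatory subunit of polymerase alpha, had 50.3, 51.8 and 54.3 CPM in the untreated, 74.8, 75.1 and 73.2 CPM in the EGF-treated and 57.3, 67.6 and 65.5 CPM in the bleogen pB1-treated libraries. The 3 groups did not overlap, at log2 fold changes of 0.51 ± 0.070 (edgeR adjusted p = 3.2e-05) for EGF and 0.28 ± 0.070 (edgeR adjusted p = 0.043) for bleogen pB1. The catalytic subunits POLA1, POLD1 and POLE had EGF estimates of 0.09, 0.21 and 0.03 on the log2 scale, of which those of POLA1 and POLE changed sign with scaling. PRIM1, POLD2 and POLD3 lay below 0 with EGF, at −0.20, −0.12 and −0.14, without passing the test, and above 0 with bleogen pB1, at 0.15, 0.09 and 0.19, again without passing it.

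The single-strand binding and Okazaki fragment group split with EGF. At the adjusted p alone 2 of its 5 genes were higher (32.4% of all genes tested) and 3 lower (33.6%). Of the 5, 0 were called by edgeR or by DESeq2, and 5 had an unadjusted p under 0.05 in edgeR (69.1% of all genes tested). FEN1, the nuclease that trims the flaps of Okazaki fragments, had 98.5, 107 and 110.1 CPM in the untreated, 148, 146 and 145 CPM in the EGF-treated and 117, 137 and 115 CPM in the bleogen pB1-treated libraries. EGF and untreated libraries did not overlap, and the log2 fold change of 0.48 ± 0.071 (edgeR adjusted p = 6.8e-05) lay just under the fold limit. Bleogen pB1 gave a log2 fold change of 0.23 ± 0.071 (edgeR adjusted p = 0.089).

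LIG1, the ligase that seals these fragments, had 81.2, 82.6 and 88.2 CPM in the untreated, 68.6, 61.3 and 67.2 CPM in the EGF-treated and 94.7, 93.5 and 95.0 CPM in the bleogen pB1-treated libraries. EGF libraries were the lowest and bleogen pB1 libraries the highest, and no groups overlapped. LIG1 had a log2 fold change of −0.35 ± 0.062 (edgeR adjusted p = 0.00024) with EGF, without a call since it was under the fold limit, and 0.17 ± 0.061 (edgeR adjusted p = 0.12) with bleogen pB1. LIG1 was the member with the lowest EGF estimate.

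The single-strand binding protein RPA has 3 subunits. RPA1, the largest, had 215, 219 and 225 CPM in the untreated, 194, 198 and 190.2 CPM in the EGF-treated and 238, 232 and 236 CPM in the bleogen pB1-treated libraries. The order was the same as for LIG1, without overlap, at log2 fold changes of −0.18 ± 0.050 (edgeR adjusted p = 0.0058) for EGF and 0.10 ± 0.049 (edgeR adjusted p = 0.27) for bleogen pB1. RPA3 had 50.2, 54.9 and 52.1 CPM in the untreated, 43.0, 44.1 and 48.4 CPM in the EGF-treated and 48.8, 53.1 and 47.4 CPM in the bleogen pB1-treated libraries. All EGF values were below all untreated ones, and the bleogen pB1 values overlapped with both, with a log2 fold change of −0.21 ± 0.072 (edgeR adjusted p = 0.018) for EGF. Leaving out untreated replicate 2, EGF replicate 1 or EGF replicate 2 gave log2 fold changes of −0.18, −0.18 and −0.19 for RPA3, and each missed the threshold of the edgeR adjusted p. RPA2, the subunit phosphorylated in the cell cycle, had a log2 fold change of 0.31 ± 0.071 (edgeR adjusted p = 0.0018) with EGF and 0.12 ± 0.071 (edgeR adjusted p = 0.35) with bleogen pB1.

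**Figure D2:**
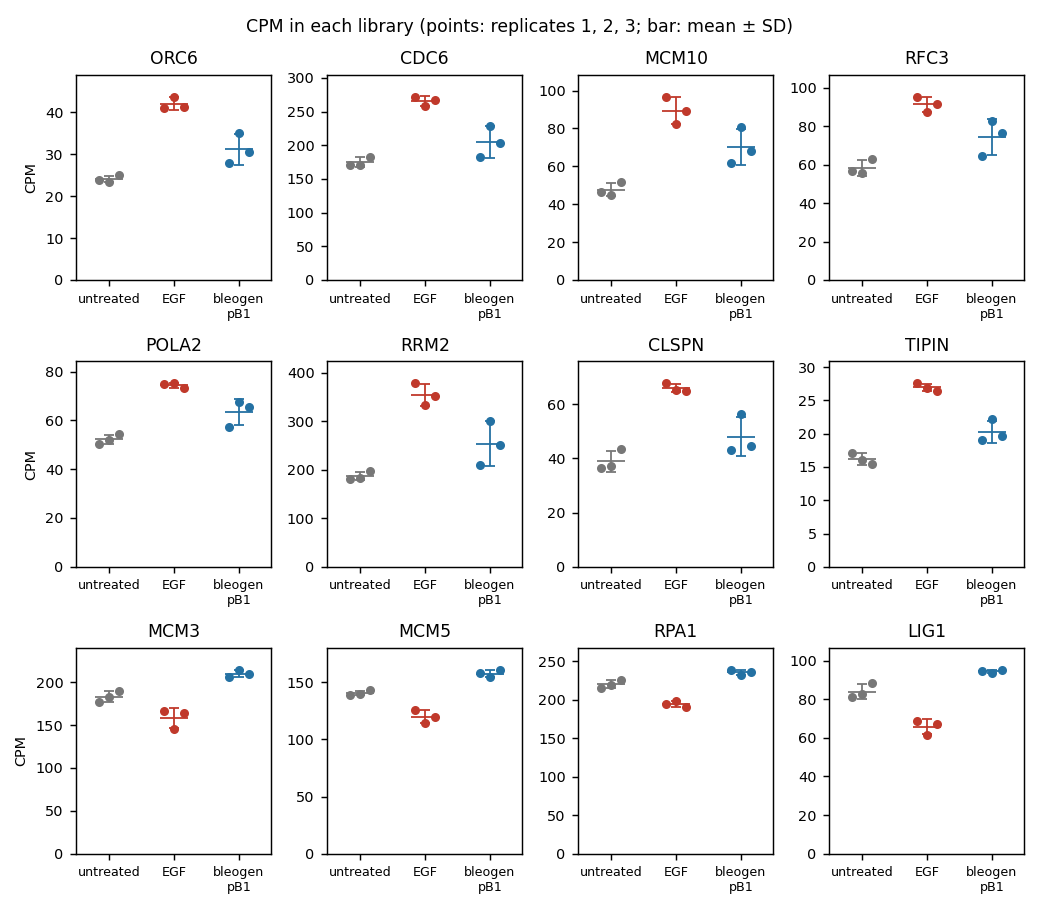
CPM (y axis, from 0) in each of the 9 libraries for 12 genes, with points for replicates and bars for the mean ± SD (n = 3). In the upper panels (ORC6 to TIPIN) the EGF means are the highest, and in the bottom row (MCM3, MCM5, RPA1 and LIG1) all EGF points lie below the untreated and all bleogen pB1 points above them.

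Enzymes of deoxynucleotide supply were led by RRM2, the regulated subunit of ribonucleotide reductase. RRM2 had 181, 183 and 197 CPM in the untreated, 378, 334 and 352 CPM in the EGF-treated and 209.5, 301 and 250.5 CPM in the bleogen pB1-treated libraries. The groups did not overlap, and the bleogen pB1 libraries ran from just above the untreated to close to the EGF ones. RRM2 rose with EGF by a log2 fold change of 0.92 ± 0.10 (edgeR adjusted p = 6.7e-06) and had a log2 fold change of 0.44 ± 0.10 (edgeR adjusted p = 0.035) with bleogen pB1. Its partner RRM1 had a log2 fold change of 0.40 ± 0.076 (edgeR adjusted p = 0.00046) with EGF and 0.32 ± 0.076 (edgeR adjusted p = 0.035) with bleogen pB1. For each RRM1 count there were 0.941 ± 0.021 RRM2 counts untreated, 1.36 ± 0.13 with EGF and 1.02 ± 0.082 with bleogen pB1 (SD, n = 3).

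TYMS, which makes thymidylate, had a log2 fold change of 0.38 ± 0.068 (edgeR adjusted p = 0.00032) with EGF and 0.27 ± 0.068 (edgeR adjusted p = 0.047) with bleogen pB1, and its exons overlap those of ENOSF1 on the other strand. TK1, the thymidine salvage kinase, and DUT, which removes dUTP, had EGF estimates of 0.03 and 0.08 and bleogen pB1 estimates of 0.12 and 0.19, none of which passed the test.

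The 3 genes of chromatin assembly and methylation upkeep act behind the fork. CHAF1A, the large subunit of the histone chaperone CAF-1, had 83.9, 84.4 and 88.5 CPM in the untreated, 112, 119 and 109 CPM in the EGF-treated and 104, 110.0 and 108 CPM in the bleogen pB1-treated libraries. Both treated groups were above the untreated libraries and overlapped with each other, at log2 fold changes of 0.40 ± 0.056 (edgeR adjusted p = 4.1e-05) for EGF and 0.33 ± 0.056 (edgeR adjusted p = 0.0065) for bleogen pB1. UHRF1, which brings the methyltransferase DNMT1 to newly copied DNA, had 62.9, 63.4 and 72.5 CPM in the untreated, 105, 86.5 and 92.9 CPM in the EGF-treated and 73.1, 84.8 and 80.7 CPM in the bleogen pB1-treated libraries. Every EGF value lay above every bleogen pB1 value, and these above the untreated ones. UHRF1 was called higher with EGF (log2 fold change 0.52 ± 0.085, edgeR adjusted p = 0.00016), and bleogen pB1 gave a log2 fold change of 0.26 ± 0.086 (edgeR adjusted p = 0.097). The EGF call of UHRF1 was lost without untreated replicate 1 (0.48), untreated replicate 2 (0.48) or EGF replicate 1 (0.44), and with upper-quartile scaling (0.41). CHAF1B had estimates of 0.15 and 0.30, neither past the adjusted p of edgeR.

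Both fork checkpoint genes were called higher with EGF (15.1% of all genes tested were), and their median log2 fold change of 0.75 was the highest of the 9 roles. CLSPN encodes claspin, which passes the signal of a stalled fork to the kinase CHK1. It had 36.3, 37.0 and 43.4 CPM in the untreated, 67.7, 65.2 and 65.0 CPM in the EGF-treated and 43.1, 56.3 and 44.6 CPM in the bleogen pB1-treated libraries. The EGF libraries lay above all others, while bleogen pB1 and untreated libraries overlapped, at log2 fold changes of 0.76 ± 0.10 (edgeR adjusted p = 2.5e-05) for EGF and 0.30 ± 0.10 (edgeR adjusted p = 0.1) for bleogen pB1. TIPIN, part of the complex that keeps polymerase and helicase together, had 17.1, 16.1 and 15.4 CPM in the untreated, 27.5, 26.9 and 26.5 CPM in the EGF-treated and 19.0, 22.2 and 19.7 CPM in the bleogen pB1-treated libraries. Its groups did not overlap, at log2 fold changes of 0.73 ± 0.086 (edgeR adjusted p = 8.9e-06) for EGF and 0.33 ± 0.087 (edgeR adjusted p = 0.054) for bleogen pB1.

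TIMELESS, the direct partner of TIPIN and not among the 49 genes, was looked at after its values were seen. Its log2 fold change was −0.31 ± 0.061 (edgeR adjusted p = 0.00054) with EGF and 0.14 ± 0.060 (edgeR adjusted p = 0.21) with bleogen pB1. For each TIMELESS count there were 0.180 ± 0.018 TIPIN counts untreated, 0.370 ± 0.0055 with EGF and 0.204 ± 0.021 with bleogen pB1 (SD, n = 3).

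The E2F factors of the list are E2F1, an activator, and E2F8, a repressor that acts later in S phase. E2F1 had 28.0, 26.5 and 27.7 CPM in the untreated, 37.1, 37.3 and 36.8 CPM in the EGF-treated and 32.6, 39.7 and 35.1 CPM in the bleogen pB1-treated libraries. Both treated groups lay above the untreated libraries, at log2 fold changes of 0.44 ± 0.080 (edgeR adjusted p = 0.00034) for EGF and 0.39 ± 0.080 (edgeR adjusted p = 0.019) for bleogen pB1, and the EGF and bleogen pB1 values overlapped. E2F8 had 16.9, 17.3 and 18.4 CPM in the untreated, 28.7, 22.3 and 21.4 CPM in the EGF-treated and 17.5, 21.4 and 21.3 CPM in the bleogen pB1-treated libraries. EGF and untreated libraries did not overlap, with a log2 fold change of 0.46 ± 0.12 (edgeR adjusted p = 0.0044), and bleogen pB1 gave a log2 fold change of 0.20 ± 0.12 (edgeR adjusted p = 0.37). Its untreated FPKM of 4.88 ± 0.22 (SD, n = 3) was the lowest of the 49 genes and overlapped within 1 SD with those of POLE2, at 5.55 ± 0.52, and CLSPN, at 5.80 ± 0.80.

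**Figure D3:**
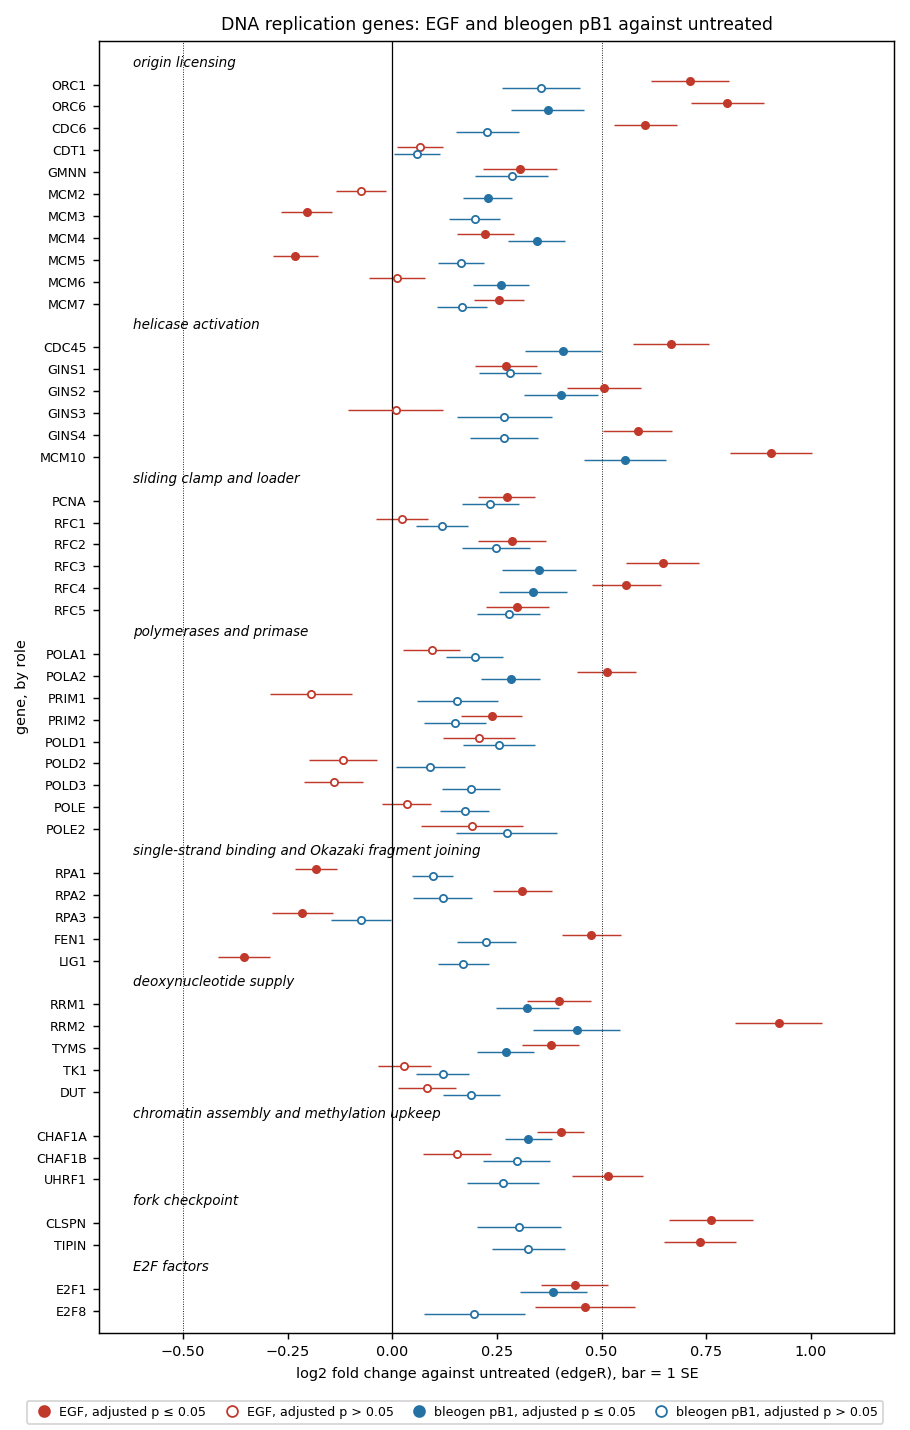
Log2 fold change against untreated (x axis, points with bars of 1 SE) of the 49 genes by role (y axis), red for EGF and blue for bleogen pB1, filled where the edgeR adjusted p was at most 0.05, with dotted lines at the fold limits of −0.5 and 0.5. The blue points lie in a band above 0 apart from RPA3, whereas the red ones run from −0.35 for LIG1 to 0.92 for RRM2.

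Set directly against bleogen pB1, EGF gave 0 genes called higher and 1, LIG1, called lower by edgeR. Of all genes tested, 10.8% were called higher and 18.0% lower. At the adjusted p alone 15 genes were higher (30.6%, beside 28.5% of all genes tested) and 9 lower (18.4%, beside 29.7%). The share higher was thus near that of all genes. At an unadjusted p under 0.05 there were 16 higher (30.7% of all genes tested) and 11 lower (31.9%). DESeq2 called 0 higher and 1 lower. With upper-quartile scaling the split at the adjusted p alone turned to 9 higher and 18 lower, and the median of the 49 genes moved from 0.04 to −0.05.

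Genes higher with EGF than with bleogen pB1 at the adjusted p alone were ORC1, ORC6, CDC6, CDC45, GINS4, MCM10, RFC3, RFC4, POLA2, RPA2, FEN1, RRM2, UHRF1, CLSPN and TIPIN. RRM2 (log2 fold change 0.48 ± 0.10, edgeR adjusted p = 0.0015) and CLSPN (log2 fold change 0.46 ± 0.099, edgeR adjusted p = 0.0016) had the largest differences. Without bleogen pB1 replicate 2, the estimates of RRM2, CLSPN and ORC6 reached 0.63, 0.59 and 0.53 and all 3 were called, and RRM2 was also called, at 0.53, without EGF replicate 2. CDC6 had a log2 fold change of 0.38 ± 0.074 (edgeR adjusted p = 0.00083) and TIPIN had a log2 fold change of 0.41 ± 0.084 (edgeR adjusted p = 0.0011). CDC45, RFC4 and RPA2 passed the adjusted p in 2 of the 6 edgeR fits that left out 1 library, and all 3 missed it with upper-quartile scaling, as did POLA2, FEN1 and UHRF1.

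Lower with EGF than with bleogen pB1 at the adjusted p alone were MCM2, MCM3, MCM5, MCM6, PRIM1, POLD2, POLD3, RPA1 and LIG1. These hold 4 of the 6 helicase subunits and the ligase. POLD2 passed in 2 of the 6 edgeR fits that left out 1 library, where its log2 fold change ranged from −0.31 to −0.11, and missed the threshold in DESeq2, with an adjusted p of 0.056. LIG1 had a log2 fold change of −0.52 ± 0.061 (edgeR adjusted p = 1.4e-05), and its call was lost without EGF replicate 2, where the estimate was −0.47. MCM3 had a log2 fold change of −0.40 ± 0.061 (edgeR adjusted p = 0.00012) and MCM5 −0.40 ± 0.054 (edgeR adjusted p = 5.1e-05). The estimates of 11 genes near 0 changed sign with scaling, among them PCNA, MCM7, RRM1 and E2F1. Both treated groups were set against the same untreated libraries, so that their comparisons are not independent.

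**Figure D4:**
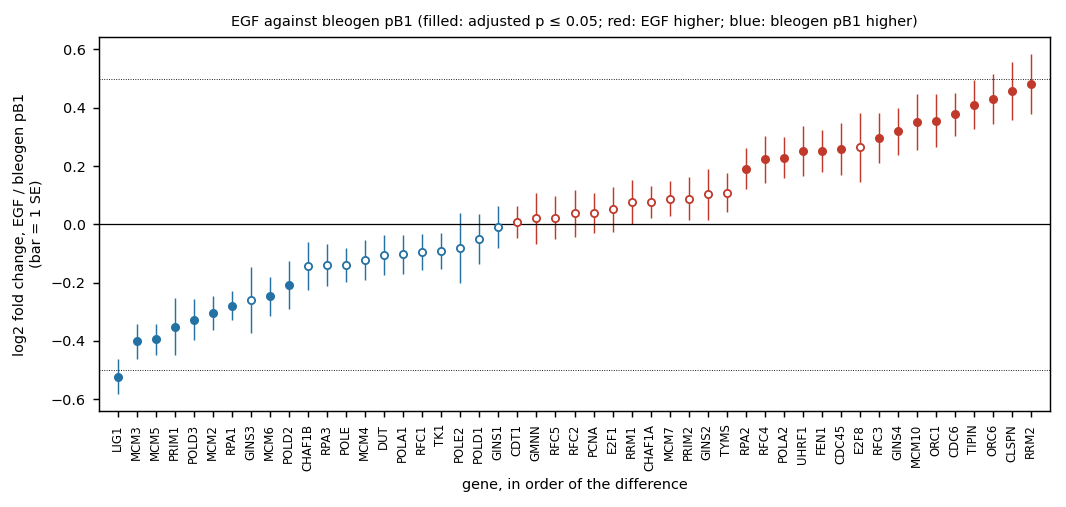
Log2 fold change of EGF against bleogen pB1 (y axis, bars of 1 SE) for the 49 genes in order of size (x axis), red where EGF and blue where bleogen pB1 was higher, filled where the edgeR adjusted p was at most 0.05. LIG1 at −0.52 is the sole point past a dotted fold limit, and RRM2 is the highest at 0.48.

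The promoter words shown above were then set against the responses. Among the genes with a window, the E2F words were in 7 of the 13 called higher with EGF and in 16 of the 29 not called. The median log2 fold change was 0.27 with and 0.30 without a word after EGF, and 0.26 with and 0.28 without one after bleogen pB1. MCM3 and LIG1, lower with EGF at the adjusted p alone, held a word, RPA1, likewise lower, held none, and MCM10 and RRM2, which had the largest rises, held none of the 4. Only these 4 exact words were searched, so that a gene without one may hold a related sequence, as the MCM10 window did.

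Replication genes outside the list were drawn from 6 further lists with 76 genes. With EGF edgeR called 12 of them higher (15.8%, beside 15.1% of all genes tested) and 8 lower (10.5%, beside 21.8%), with a median log2 fold change of 0.26, and with bleogen pB1 0 were called higher and 1, POLD4, lower, with a median of 0.17. At the adjusted p alone 40 were higher (52.6%, beside 32.4% of all genes tested) and 17 lower (22.4%, beside 33.6%) with EGF. Of the 76 bleogen pB1 estimates 62 lay above 0, 39 genes (51.3%, beside 22.2% of all genes tested) had an unadjusted p under 0.05 in edgeR, and DESeq2 called 1 of the 76 higher. The same shares of all genes tested stand beside the counts of each list below.

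Initiation genes were represented by 16 further members, of which 1 was called higher and 1 lower with EGF. ORC5 (log2 fold change 0.50 ± 0.067, edgeR adjusted p = 2.7e-05) and ORC2 (log2 fold change 0.49 ± 0.074, edgeR adjusted p = 7.5e-05), subunits of the origin recognition complex, had the smallest adjusted p. The subunits ORC3 (log2 fold change −0.07 ± 0.061, edgeR adjusted p = 0.31) and ORC4 (log2 fold change −0.07 ± 0.061, edgeR adjusted p = 0.3) did not pass the test with EGF. The gene called lower was CIZ1 (log2 fold change −0.75 ± 0.13, edgeR adjusted p = 0.00028). CDC7, the kinase that fires origins, had a log2 fold change of 0.17 ± 0.086 (edgeR adjusted p = 0.097) with EGF and 0.13 ± 0.086 (edgeR adjusted p = 0.41) with bleogen pB1.

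In the further fork and maturation genes, 14 in number, 1 was called higher and 2 lower with EGF. DSCC1, part of the loader that opens the clamp for cohesion, had 22.9, 23.8 and 29.4 CPM in the untreated, 52.6, 54.1 and 58.0 CPM in the EGF-treated and 28.3, 46.5 and 37.8 CPM in the bleogen pB1-treated libraries. It rose with EGF (log2 fold change 1.11 ± 0.15, edgeR adjusted p = 2.5e-05), and bleogen pB1 gave a log2 fold change of 0.56 ± 0.15 (edgeR adjusted p = 0.051). POLD4, the smallest subunit of polymerase delta, had 30.2, 32.7 and 30.0 CPM in the untreated, 15.3, 21.4 and 20.7 CPM in the EGF-treated and 23.2, 20.1 and 21.3 CPM in the bleogen pB1-treated libraries. All treated libraries were below all untreated ones, at log2 fold changes of −0.69 ± 0.11 (edgeR adjusted p = 0.00015) for EGF and −0.53 ± 0.11 (edgeR adjusted p = 0.024) for bleogen pB1.

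Further nucleotide supply genes, 10 in number, had 4 called higher and 2 lower with EGF. CTPS1, which makes CTP, rose (log2 fold change 1.05 ± 0.11, edgeR adjusted p = 3.1e-06) and SAMHD1, which breaks down deoxynucleotides, fell. SAMHD1 had 259.6, 227 and 241 CPM in the untreated, 96.2, 128 and 112 CPM in the EGF-treated and 191, 209 and 195 CPM in the bleogen pB1-treated libraries. The groups did not overlap, at log2 fold changes of −1.11 ± 0.090 (edgeR adjusted p = 4.2e-07) for EGF and −0.29 ± 0.088 (edgeR adjusted p = 0.082) for bleogen pB1.

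Of 8 further chromatin genes edgeR called 0 with EGF and DESeq2 called 1, DNMT1. In edgeR 5 had an unadjusted p under 0.05 (69.1% of all genes tested) and 4 were higher at the adjusted p alone (32.4%). DNMT1, the maintenance methyltransferase, had a log2 fold change of 0.50 ± 0.063 (edgeR adjusted p = 1.7e-05) with EGF, just under the fold limit, and 0.24 ± 0.063 (edgeR adjusted p = 0.051) with bleogen pB1. SUPT16H, a histone chaperone, had a log2 fold change of 0.41 ± 0.062 (edgeR adjusted p = 8e-05) with EGF.

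The 17 further E2F, RB and G1/S genes had 4 called higher and 3 lower with EGF. With bleogen pB1 edgeR and DESeq2 called 0 of them, and 10 had an unadjusted p under 0.05 in edgeR. CDC25A, the phosphatase that activates CDK2, rose (log2 fold change 1.06 ± 0.095, edgeR adjusted p = 1e-06), and RBL2, the pocket protein of resting cells, fell (log2 fold change −1.32 ± 0.13, edgeR adjusted p = 1.8e-06). E2F7, a repressor like E2F8, rose with EGF (log2 fold change 0.78 ± 0.11, edgeR adjusted p = 3.8e-05), with a log2 fold change of 0.35 ± 0.11 (edgeR adjusted p = 0.086) for bleogen pB1. CCNE2, an S-phase cyclin, had a log2 fold change of 0.10 ± 0.093 (edgeR adjusted p = 0.36) with EGF.

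E2F2, an activator like E2F1 that was chosen after its values were seen, had 15.8, 16.6 and 18.6 CPM in the untreated, 12.1, 6.70 and 9.39 CPM in the EGF-treated and 21.02, 25.3 and 22.6 CPM in the bleogen pB1-treated libraries. EGF libraries were the lowest and bleogen pB1 libraries the highest, without overlap. The log2 fold change was −0.85 ± 0.17 (edgeR adjusted p = 0.00054) with EGF and 0.43 ± 0.15 (edgeR adjusted p = 0.12) with bleogen pB1, and E2F2 was lower with EGF than with bleogen pB1 (log2 fold change −1.29 ± 0.16, edgeR adjusted p = 2.7e-05).

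Of 11 further checkpoint genes 2 were called higher and 0 lower with EGF, CHEK1 (log2 fold change 0.57 ± 0.072, edgeR adjusted p = 1.5e-05), the kinase downstream of claspin, and HUS1 (log2 fold change 0.62 ± 0.10, edgeR adjusted p = 0.00012), part of the checkpoint clamp. DTL, which directs the destruction of CDT1, had a log2 fold change of 0.30 ± 0.071 (edgeR adjusted p = 0.0022) with EGF and 0.25 ± 0.071 (edgeR adjusted p = 0.062) with bleogen pB1. None of the 11 passed the adjusted p of edgeR with bleogen pB1, where 2 had an unadjusted p under 0.05.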

How the data were processed

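RNA of HaCaT cells was sequenced in 9 libraries, 3 per group, and the groups were taken from the treatment labels. Oligo-dT selected, dUTP-stranded libraries were mapped by the authors to GRCh38.p12. The deposited files give, for each gene, its length, the expected count that the authors had estimated from mapped fragments, not normalised, and the FPKM that they computed from it, with 1 file per library. The program that made the counts, and whether it used the strand, are not given in the sources used here.

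Expected counts were rounded, joined by gene, scaled by TMM and filtered with filterByExpr, which left 12394 genes, and genes without a row in a library were taken as 0 there. EdgeR 4.0.16 in R 4.3.3 was fitted over the 9 libraries (glmQLFit and glmQLFTest, 6 residual degrees of freedom), with Benjamini-Hochberg adjustment over all genes tested. A call needed an adjusted p of at most 0.05 and a log2 fold change of at least 0.5 in size. Alternatives used DESeq2 1.42.0, limma 3.58.1 on log2(FPKM + 1) and log2(FPKM + 0.1) of the FPKM deposited by the authors, other scalings and filters, and each library left out in turn. The fits were tested on simulated data. An exact two-sided permutation test on CPM of 3 against 3 libraries cannot give a p below 0.1, so none is printed.

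The members and lists were chosen with earlier results of these data known. Values per library are given for the members of each role with the smallest adjusted p or the largest change with EGF and for those called with bleogen pB1. They are also given for the members lower with EGF at the adjusted p alone, and for a few others named as chosen after their values were seen. ORC1, CDC6 and AURKA meet none of these rules and should likewise be read as chosen after their values were seen. From each list of other genes come the 2 with the smallest adjusted p with EGF, plus E2F7, CCNE2, DTL, DNMT1, CDC7, MKI67, TOP2A and CCNB1, and 1 further gene of this rule is not reported here. Melanocyte and immune markers are summarised in the limits below, and endothelial markers in the results above. Exon overlaps came from GENCODE annotation of GRCh38 and promoter windows from RefSeq (GRCh38.p14).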

Additional observations from a re-analysis of the deposited data

How the results depend on the processing

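Over the 3 comparisons, no single member gene called or past the adjusted p reversed its direction. For EGF against untreated 593 of these values per gene and alternative kept an adjusted p of at most 0.05 and 19 did not. The numbers were 181 and 89 for bleogen pB1 against untreated and 376 and 56 for EGF against bleogen pB1. Calls lost only at the fold limit are not counted among these losses. The causes of the shifts below were not tested.

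For EGF against untreated, 9 members were called higher with upper-quartile scaling and with limma on log2(FPKM + 1), filtered or not, 29 higher and 5 lower with the adjusted p alone, 0 with a log2 limit of 1, and 10 to 15 with 1 library left out. Lower at the adjusted p alone were 9 with upper-quartile scaling and 3 to 6 with 1 library left out, 3 being the count without EGF replicate 2. The median log2 fold change was 0.17 with upper-quartile scaling, 0.22 with no scaling, 0.20 with log2(FPKM + 1), filtered or not, 0.21 with log2(FPKM + 0.1), and 0.24 to 0.29 with 1 library left out. Over all genes tested, upper-quartile scaling turned 1875 called higher and 2703 lower into 1396 and 3221.

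For bleogen pB1 against untreated, 0 were called higher with limma on unfiltered log2(FPKM + 1) or a log2 limit of 1, 15 with the adjusted p alone, and 0 to 3 with 1 library left out. Higher at the adjusted p alone were 26 with DESeq2 on 9 libraries, 30 with DESeq2 on the 6 compared, 3 with unfiltered limma, and 0 to 29 with 1 library left out. The median stayed within 0.19 to 0.32 with 1 library left out.

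For EGF against bleogen pB1, 15 were higher and 9 lower with the adjusted p alone, and 0 were lower with a log2 limit of 1. With 1 library left out, 0 to 3 were called higher and 0 to 1 lower, with 3 higher without bleogen pB1 replicate 2 and, without EGF replicate 2, 1 higher and 0 lower. At the adjusted p alone, 9 were higher with upper-quartile scaling and both filtered limma fits and 7 with unfiltered limma, and 18 were lower with upper-quartile scaling, no scaling and both filtered limma fits and 16 with unfiltered limma.

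Same-numbered libraries share only a number. Their deviations from the group means correlated at 0.045, 0.036 and 0.0039 for EGF and untreated, at 0.21, −0.03 and 0.11 for bleogen pB1 and untreated, and at 0.056, 0.038 and 0.027 for EGF and bleogen pB1, and a library correlated best with its own number in 1, 2 and 1 of 3 cases. With the replicate number as a block, 14 members were called higher with EGF (30 higher and 5 lower at the adjusted p alone), 1 was called higher with bleogen pB1 (12 at the adjusted p alone), and 1 was called lower with EGF than with bleogen pB1.

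The lowest expected count of any member was 184, for POLE2, so that depth left every member above the floor in each library. Melanocyte markers summed to 5.24 to 9.12 CPM (6.73 to 9.12 untreated, 5.24 to 6.60 with EGF, 6.64 to 7.96 with bleogen pB1) and immune markers to 0.812 to 2.11 CPM. Of the melanocyte markers, edgeR called PMEL lower with EGF (0.574-fold, edgeR adjusted p = 0.04).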

Other observations

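Genes of G2 and mitosis were read from a further list of 16. With EGF edgeR called 7 of them higher (15.1% of all genes tested) and 0 lower (21.8%), and DESeq2 called the same numbers of the 16. At the adjusted p alone 10 were higher (32.4% of all genes tested) and 1, CENPF, was lower (33.6%), with a median log2 fold change of 0.43. AURKB, a kinase of chromosome segregation, had 85.0, 82.8 and 85.6 CPM in the untreated, 133, 138 and 133 CPM in the EGF-treated and 93.5, 109.6 and 98.0 CPM in the bleogen pB1-treated libraries. Every EGF library lay above every bleogen pB1 library, and these lay above the untreated ones, at log2 fold changes of 0.68 ± 0.064 (edgeR adjusted p = 1.5e-06) for EGF and 0.25 ± 0.064 (edgeR adjusted p = 0.049) for bleogen pB1. CDC20, an activator of the anaphase-promoting complex, rose with EGF (log2 fold change 0.78 ± 0.082, edgeR adjusted p = 4e-06). CCNB1, the mitotic cyclin B1, rose with EGF (log2 fold change 0.51 ± 0.080, edgeR adjusted p = 0.0001) and had a log2 fold change of 0.35 ± 0.080 (edgeR adjusted p = 0.032) with bleogen pB1.

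MKI67, which encodes the proliferation marker Ki-67, was higher with EGF at the adjusted p alone and had a log2 fold change of 0.30 ± 0.094 (edgeR adjusted p = 0.013) with EGF and 0.22 ± 0.094 (edgeR adjusted p = 0.2) with bleogen pB1. Not all genes of the list were higher with EGF. TOP2A, the topoisomerase of dividing cells, had a log2 fold change of 0.02 ± 0.070 (edgeR adjusted p = 0.77) with EGF and 0.17 ± 0.070 (edgeR adjusted p = 0.18) with bleogen pB1. CENPF, a kinetochore protein chosen after its values were seen, had 334, 310.5 and 378 CPM in the untreated, 321, 262 and 287 CPM in the EGF-treated and 363, 385 and 385 CPM in the bleogen pB1-treated libraries. The highest EGF value lay just above the lowest untreated one, with a log2 fold change of −0.23 ± 0.084 (edgeR adjusted p = 0.026).

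With bleogen pB1 edgeR and DESeq2 called 0 of the 16. All 16 edgeR estimates, with a median log2 fold change of 0.30, lay above 0, as did 6166 of all 12394 genes tested. In edgeR 5 were higher at the adjusted p alone (1.56% of all genes tested) and 15 had an unadjusted p under 0.05 (22.2%). Set against bleogen pB1, EGF gave 1 of the 16 called higher by edgeR (10.8% of all genes tested were), the mitotic kinase AURKA (log2 fold change 0.53 ± 0.11, edgeR adjusted p = 0.0012). AURKA had 101, 107 and 116 CPM in the untreated, 211, 189 and 198 CPM in the EGF-treated and 111, 163 and 141 CPM in the bleogen pB1-treated libraries, and its EGF values were the highest.

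In promoter windows the word TTTGAA, found in the cell cycle homology region of many mitotic genes and read on both strands, was in 10 of the 13 G2 and mitosis genes with a window (76.9%), in 4.76% of the 42 replication genes with a window and in 18.2% of all genes with a window.

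CCNE1, E2F5 and TK2, chosen after their values were seen, had EGF estimates larger in size than any of the 49 genes. The same held for DSCC1, CTPS1, SAMHD1, CDC25A and RBL2, described above. CCNE1, cyclin E1, had 2.41, 2.65 and 2.39 CPM in the untreated, 6.05, 5.19 and 5.30 CPM in the EGF-treated and 2.63, 4.45 and 3.28 CPM in the bleogen pB1-treated libraries, and rose with EGF (log2 fold change 1.15 ± 0.20, edgeR adjusted p = 0.0002). E2F5, a factor that pairs with pocket proteins, rose as well (log2 fold change 0.98 ± 0.10, edgeR adjusted p = 4.4e-06). TK2, the mitochondrial thymidine kinase, fell with EGF (log2 fold change −1.16 ± 0.28, edgeR adjusted p = 0.0024).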
